A study of Rattus norvegicus with 83 samples.

Results

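Of the 83 rat libraries in the series, 30 carry the label gestational day 21 (GD21), and 10 of these 30 contained abundant albumin (Alb) transcripts. The libraries were selected on their Alb level, with a split at 200 CPM, the counts of a gene scaled to a library total of 1000000. The 10 libraries at or above that level are called Alb-high here and the 20 below it Alb-low. Alb itself made the split, so the Alb values, and those of other liver genes, are given as a description without a test. Alb reached 431 CPM in the lowest Alb-high library and 51.5 CPM in the highest Alb-low library, and no library lay between these values.

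The assay was BRB-seq, a bulk RNA method that barcodes the 3′ ends of polyadenylated transcripts per sample and sequences the samples pooled. Time-mated Sprague-Dawley dams (Crl:CD(SD)) were gavaged daily from GD7, and the GD21 offspring tissue came from 5 groups of 6 libraries. The groups were methimazole at 8 mg/kg per day (MMI8), methimazole at 16 mg/kg per day (MMI16), amitrole at 25 mg/kg per day (Ami25), amitrole at 50 mg/kg per day (Ami50) and corn oil vehicle. Methimazole and amitrole block thyroid hormone synthesis at thyroid peroxidase. A further 53 libraries, of the same 5 treatments, carry the label pup day 16 (PD16), with birth expected on GD23. The protocol text gives dosing to PD22 and the series text to PD16. The labels give the tissue as testis, but transcripts of adrenal steroid synthesis were abundant, and the 13 testis genes of the list used here summed to 4.30 to 29.0 CPM in Alb-high and 0 to 30.3 CPM in Alb-low libraries. Animal and litter identities are not given, so p-values measure the spread between these libraries. Total counts were 670040 to 1526341 in Alb-high and 495369 to 1627114 in Alb-low libraries.

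Hepatocytes make most plasma proteins, among them albumin, the fibrinogen chains (Fga, Fgb and Fgg), the vitamin D carrier Gc, and the apolipoproteins of circulating lipoproteins. The fetal liver also secretes alpha-fetoprotein (Afp) and is a site of blood formation before birth. The adrenal cortex makes corticosteroids from cholesterol, and the adrenal medulla makes catecholamines.

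Promoter letters of the 4 marker genes are shown because these genes separate the libraries. Each line holds the 200 bases before the annotated start, 5′ to 3′ on the gene's strand, from RefSeq on GRCr8. Capitals mark the best match, with up to 2 mismatches, to the binding motif of the liver-enriched factor HNF1 (GTTAAT, any base, then ATTAAC).
Alb: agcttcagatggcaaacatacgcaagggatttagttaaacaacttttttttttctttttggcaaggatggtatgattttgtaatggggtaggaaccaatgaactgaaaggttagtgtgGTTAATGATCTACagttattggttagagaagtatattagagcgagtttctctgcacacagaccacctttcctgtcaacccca
Fga: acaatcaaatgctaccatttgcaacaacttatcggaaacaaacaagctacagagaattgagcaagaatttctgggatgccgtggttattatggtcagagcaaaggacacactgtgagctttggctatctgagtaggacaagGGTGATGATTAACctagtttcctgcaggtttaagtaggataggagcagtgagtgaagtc
Fgb: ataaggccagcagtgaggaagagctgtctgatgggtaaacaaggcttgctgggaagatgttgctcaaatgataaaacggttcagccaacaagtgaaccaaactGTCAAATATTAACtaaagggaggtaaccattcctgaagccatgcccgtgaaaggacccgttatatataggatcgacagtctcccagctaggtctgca
Gc: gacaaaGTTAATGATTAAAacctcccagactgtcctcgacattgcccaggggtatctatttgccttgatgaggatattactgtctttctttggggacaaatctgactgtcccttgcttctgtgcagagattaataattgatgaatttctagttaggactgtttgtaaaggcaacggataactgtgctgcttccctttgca

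The windows lie at chr14:17906980-17907179 on the minus strand for Alb, chr2:170671969-170672168 on the plus strand for Fga, chr2:170700876-170701075 on the minus strand for Fgb and chr14:18916055-18916254 on the plus strand for Gc. The best match starts 82 bases before the start in Alb, 59 in Fga, 97 in Fgb and 194 in Gc. On both strands of the 250 bases before the start, a match with up to 2 mismatches occurred in 24 of 162 liver-list promoters (14.8%), against 307 of 27457 promoters in all (1.12%). The half-site GTTAAT, whose matches can overlap those of the longer motif, occurred in 32 of the 162 (19.8%) and in 6.46% of all promoters. The letters TATAAA occurred in 18.5% of the liver-list promoters and in 13.1% of all. These are letter matches, and no binding was measured.

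Alb-high libraries occurred in every treatment group. There were 2 of 6 in MMI8, 2 of 6 in MMI16, 1 of 6 in Ami25, 2 of 6 in Ami50 and 3 of 6 in vehicle. In MMI8 the 2 Alb-high libraries had 10976 CPM (library 45) and 1382 CPM (library 70). In MMI16 they had 3168 CPM (library 47) and 1252 CPM (library 72). The Ami25 library had 1843 CPM (library 81). In Ami50 they had 4394 CPM (library 89) and 696 CPM (library 87). The 3 vehicle libraries had 5319 CPM (library 44), 1929 CPM (library 62) and 431 CPM (library 42). The Alb-high values therefore spanned more than a decade, with a mean of 3139 ± 3177 CPM (SD, n = 10), against 26.1 ± 12.0 CPM in Alb-low libraries (SD, n = 20). Alb-low libraries ranged from 11.8 to 51.5 CPM with a median of 22.1 CPM, and rested on 6 to 59 Alb counts each.

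**Figure D1:**
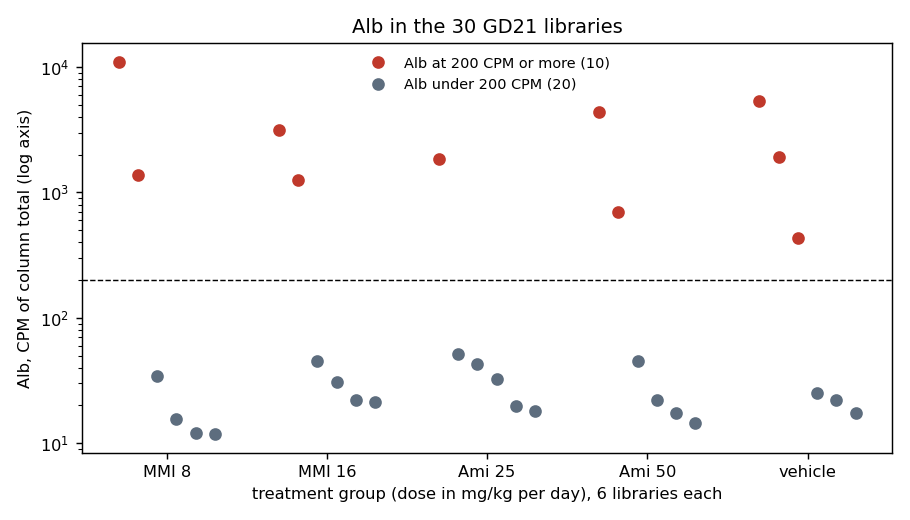
Alb level (CPM of the library total, log axis) of each GD21 library by treatment group, with the threshold of 200 CPM dashed. The 10 Alb-high libraries (red) lie at 431 CPM or above and the 20 Alb-low libraries (grey) at 51.5 CPM or below, with at least 1 Alb-high library in each group.

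Library numbers fall into 2 runs, 41 to 56 and 61 to 90. Alb-high libraries were 4 of 16 in the first and 6 of 14 in the second. A threshold of 100 CPM gave the same 10 libraries, and 1000 CPM gave 8.

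Genes of 7 liver lists (plasma proteins, apolipoproteins, coagulation, complement, enzymes, transport and receptors, regulators) made up 0.511% to 4.71% of all counts in Alb-high libraries, with a median of 1.17%. In Alb-low libraries they made up 0.250% to 0.317%, with a median of 0.284%, so the sets did not overlap. Of the 214 liver-list genes in the table, 36 had every Alb-high library above every Alb-low library. Among all 17483 genes 41 (0.235%) did so, and these include the 36, which were chosen together with Alb. The non-overlapping genes were 15 of 44 plasma protein genes, 7 of 16 apolipoprotein genes, 8 of 21 coagulation genes, 2 of 18 complement genes and 4 of 82 enzyme genes. None of the 18 transport and receptor genes or the 15 regulators did so.

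Among plasma proteins, Afp had 254, 831 and 3563 CPM (lowest, median, highest) in Alb-high libraries and 5.23, 13.5 and 23.7 CPM in Alb-low libraries. The thyroxine and retinol carrier Ttr had 111, 538 and 2488 CPM in Alb-high libraries and 2.47, 9.11 and 16.3 CPM in Alb-low libraries. The iron carrier transferrin (Tf) had 437, 1122 and 5064 CPM in Alb-high libraries and 70.7, 120 and 236 CPM in Alb-low libraries. The sets were separate for all 3 genes, although Tf was well above 0 in every Alb-low library. The protease inhibitor Serpina1 had 232, 654 and 3797 CPM in Alb-high libraries, against 22.3, 39.1 and 62.9 CPM in Alb-low libraries. Gc had 28.6, 96.5 and 503 CPM in Alb-high libraries, against 0, 0.850 and 4.04 CPM in Alb-low libraries.

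Of the apolipoproteins, Apoa1, the main protein of high-density lipoprotein, had 119, 480 and 1860 CPM in Alb-high libraries and 2.09, 6.79 and 15.7 CPM in Alb-low libraries. Apoc4 overlapped, with 138, 217 and 401 CPM in Alb-high and 86.7, 160 and 210 CPM in Alb-low libraries. Of the fibrinogen chains, Fgb had 75.1, 300.0 and 1572 CPM in Alb-high libraries and 0, 3.38 and 8.59 CPM in Alb-low libraries. Fga had 20.1, 145 and 673 CPM in Alb-high libraries and 0, 1.20 and 4.04 CPM in Alb-low libraries. Both fibrinogen chains were at 0 in at least 1 Alb-low library.

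Not every liver-list gene followed Alb. In Alb-low libraries 32 of the 214 genes averaged at least 10 CPM, and 5 of these 32 (Alb, Afp, Tf, Ahsg and Serpina1) had separate sets. The complement genes C4a and C4b are near-identical copies whose reads could be split by the counting. C4a had 270, 414 and 582 CPM in Alb-high libraries and 325, 472 and 563 CPM in Alb-low libraries. Ass1, an enzyme of the urea cycle, had 121, 190 and 459 CPM in Alb-high libraries and 61.6, 203 and 329 CPM in Alb-low libraries. The transcriptional regulators Foxa2 and Nr0b2 also overlapped, Nr0b2 with medians of 59.0 CPM in Alb-high and 68.1 CPM in Alb-low libraries.

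Over the 30 libraries and among genes averaging at least 5 CPM in Alb-high libraries, the genes whose CPM ranked most like Alb were Ttr (Spearman rho 0.92), Otc (0.89), Fgb (0.88), Kng1 (0.85), Serpina1 (0.85), Hsd17b13 (0.83), Apoa1 (0.83), Serpinc1 (0.83), Ugt2b35 (0.83) and Proc (0.83). All but Hsd17b13 belong to the liver lists. These values share library totals and the gap between the sets.

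Within the 10 Alb-high libraries, the summed level of the other liver-list genes had a Pearson r of 0.97 and a Spearman rho of 0.99 with Alb on log2(CPM + 1), and r was 0.97 without the 2 libraries farthest from the Alb median. Within the 20 Alb-low libraries r was 0.35 and rho 0.38, and r was 0.29 without the 2 farthest. With only Fga, Fgb and Gc in place of the lists, a choice made after the data had been seen, the Alb-low values were r = 0.65 and rho = 0.67, and r was 0.59 without the 2 farthest. These values describe the libraries and carry no test, since Alb chose the libraries and all these genes share the denominator of their library.

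Ratios to Alb divide out the library total. Per 100 Alb counts, the 10 Alb-high libraries had 27.6 to 58.8 Afp counts (median 46.8), 14.3 to 35.0 Ttr counts (median 27.3), 11.5 to 27.9 Fgb counts (median 17.2) and 2.91 to 9.58 Gc counts (median 5.87). The highest of these ratios was 2.13 times the lowest for Afp, 2.43 times for Fgb and 3.30 times for Gc, while Alb itself varied from 431 to 10976 CPM. For Afp, 8 of the 10 libraries had a 95% Wilson interval that excluded the pooled ratio, so the libraries differed by more than counting error. The intervals cover counting error only. Summed over the Alb-low libraries, 506 Alb counts stood beside 267 Afp, 80 Fgb, 25 Fga and 20 Gc counts. That gives 52.8 Afp and 15.8 Fgb counts per 100 Alb counts, and the pooled Alb-high ratios were 41.2 and 15.8. Ttr (33.8 against 26.1) and Apoa1 (29.2 against 21.9) were also higher in Alb-low libraries. Fga (4.94 against 6.51) and Gc (3.95 against 5.69) were lower. MMI8 library 45 holds 16753 of the 36144 Alb counts behind the pooled Alb-high ratios.

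At PD16, 5 of 53 libraries had Alb at 200 CPM or more. They were 1 MMI16, 1 Ami25 and 3 Ami50 libraries, so stage and treatment cannot be told apart in this comparison and it is given without a test. Per 100 Alb counts they had 52.3 to 85.7 Afp counts (median 65.0) and 27.1 to 45.8 Apoa1 counts (median 40.3). The GD21 Alb-high medians were 46.8 and 26.2. The PD16 MMI16 library 9 stood apart, with 85.7 Afp, 6.64 Fgb and 1.99 Fga counts per 100 Alb counts. The other 4 PD16 libraries had 22.9 to 31.5 Fgb counts.

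**Figure D2:**
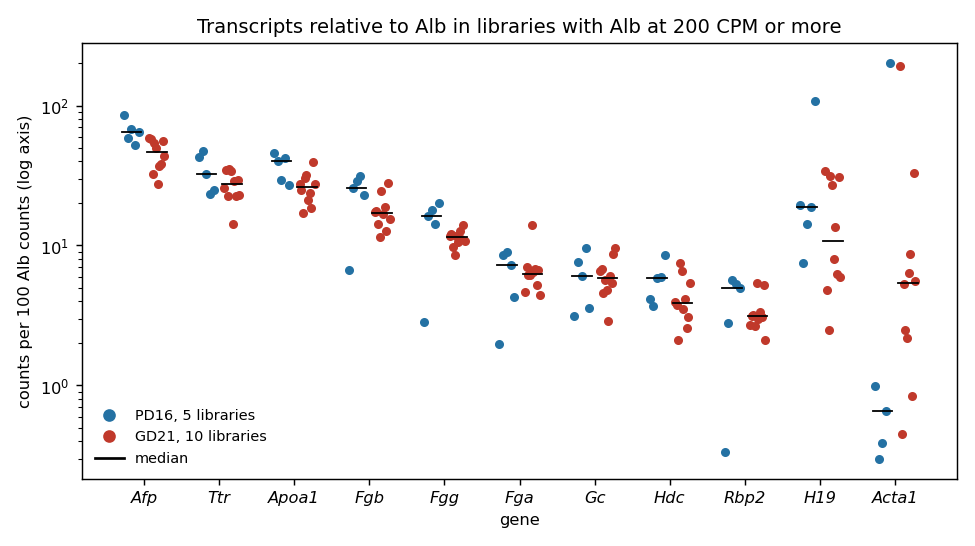
Counts of each gene per 100 Alb counts (log axis) in the 5 PD16 (blue) and 10 GD21 (red) libraries with Alb at 200 CPM or more; bars are medians. Afp, Ttr, Apoa1 and the fibrinogen genes keep within a few-fold of each other over the GD21 libraries, whereas H19 spans 2.48 to 34.3 and Acta1 0.453 to 193 counts.

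Genes outside the liver lists were compared between Alb-high and Alb-low libraries with edgeR's quasi-likelihood test, with treatment group as a block. At an adjusted p under 0.05, 71 of 5742 tested genes were called (1.24%), 70 of them higher (1.22%) and 1 lower (0.0174%). Outside the liver lists 36 of 5687 genes were called (0.633%), 35 higher and 1 lower, and 317 had an unadjusted p under 0.05. DESeq2 called 43 outside the liver lists. The lists need not hold every liver gene, so the 36 may include some, and their cell of origin was not tested. The liver-list genes among the 71 were chosen together with Alb, and nothing is read from their count. The median log2 fold change over all tested genes was -0.0069.

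The largest rises outside the liver lists were in Rbp2, which encodes a cellular retinol-binding protein, and Hdc, which encodes the histamine-forming histidine decarboxylase. Rbp2 had 11.6, 70.4 and 349 CPM in Alb-high libraries and 0, 0.808 and 4.04 CPM in Alb-low libraries. It passed the filter on low counts only through the Alb-high libraries, where it is high. Its log2 fold change was 6.21 (SE 0.48, edgeR adjusted p = 3.15e-10), and 6.20 with no filter (edgeR adjusted p = 1.94e-09). Hdc had 16.9, 89.8 and 237 CPM in Alb-high libraries and 0, 4.08 and 11.7 CPM in Alb-low libraries, a log2 fold change of 4.61 (SE 0.42, edgeR adjusted p = 1.20e-08). Hdc too passed the filter mainly through Alb-high libraries, and with no filter its value was 4.59 (edgeR adjusted p = 2.97e-08). The sets did not overlap for either gene, and both stayed called in every alternative analysis that was run. Each alternative again split or ordered the libraries by Alb. The kept calls and the p-values therefore describe libraries chosen on Alb and are no independent support. Within library numbers 41 to 56 the Hdc medians were 216 CPM in Alb-high and 3.80 CPM in Alb-low libraries, and within numbers 61 to 90 they were 50.3 and 4.42 CPM in the same order. Per 100 Alb counts the Alb-high libraries had 2.10 to 7.49 Hdc and 2.10 to 5.39 Rbp2 counts.

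Both genes were also read in the PD16 libraries, grouped by the same Alb threshold of 200 CPM. Transcripts carried with Alb are higher in such a group by that choice, so the values are a description and no independent test. Hdc had 21.1, 39.1 and 115 CPM in the 5 PD16 libraries with Alb at 200 CPM or more and 0, 2.97 and 10.9 CPM in the other 48. Rbp2 had 1.69, 34.7 and 111 CPM in the 5 and 0, 0.475 and 3.85 CPM in the 48. The 5 are amitrole and MMI16 libraries and the 48 include every vehicle and MMI8 library, so treatment and Alb level are partly confounded here. All 5 lay above all 48 for Hdc, and 4 of 5 for Rbp2, the exception being MMI16 library 9. Other genes with separate sets at GD21, Aqp9 and Aqp8 (water channels) and Gulo (the last step of vitamin C synthesis), were noticed after their values were seen. Aqp9 had 7.40 to 85.2 CPM in Alb-high libraries and at most 3.94 CPM in Alb-low libraries.

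The metal-binding Mt2A had 86.7, 237 and 674 CPM in Alb-high libraries and 16.8, 54.7 and 90.4 CPM in Alb-low libraries, a log2 fold change of 2.49 (SE 0.30, edgeR adjusted p = 3.10e-06). Igf2, a fetal growth factor, had 104, 190 and 463 CPM in Alb-high libraries and 64.3, 118 and 169 CPM in Alb-low libraries. It rose by a log2 fold change of 1.02 (SE 0.21, edgeR adjusted p = 0.00436), with 7 of 10 Alb-high libraries above the highest Alb-low library. The Igf2 call was lost (edgeR adjusted p = 0.298) without the libraries at 200 CPM or more of the muscle list described below. That setting leaves 2 Alb-high libraries. H19, the imprinted neighbour of Igf2, was named after its values were seen and rose by 1.63 (SE 0.29, edgeR adjusted p = 9.27e-04). H19 was highest in MMI16 library 47 (1000 CPM) and vehicle library 62 (521 CPM), which were not the libraries highest in Alb.

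Genes of blood cells moved in part. The neutrophil and mast cell list had 3 of 10 genes called, all higher, against 0.633% of all genes outside the liver lists, with a median log2 fold change of 0.67. All 10 values were above 0. The unadjusted edgeR p was under 0.05 for 5 of the 10, against 317 of 5687 genes outside the liver lists. Mpo, the neutrophil peroxidase, had 6.78, 26.2 and 55.5 CPM in Alb-high libraries and 0, 6.47 and 18.6 CPM in Alb-low libraries (log2 fold change 1.68, SE 0.40, edgeR adjusted p = 0.0241). The defensins Defa5 and Np4, which belong to a multigene family whose reads could be split by the counting, rose by 1.47 and 1.42. Without any one of several libraries these 3 calls were lost, with adjusted p reaching 0.131 for Mpo (lost without MMI8 45, MMI16 47 or Ami50 89). Defa5 and Np4 were both lost without any of vehicle 62, MMI8 45, MMI16 47, Ami25 81 and Ami50 89, and Defa5 also without vehicle 44. All 3 calls were also lost without the libraries rich in muscle transcripts described below, at either level of 200 or 1000 CPM. These settings leave 2 and 8 Alb-high libraries in the same order, so muscle RNA and the smaller number of libraries cannot be told apart. The calls of Defa5 and Np4 were also lost with liver genes removed from the table.

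The red cell maturation list had 1 of 19 genes called, against 0.633% of all genes outside the liver lists, the carbonic anhydrase Car1, with 15.9, 44.4 and 76.1 CPM in Alb-high libraries and 2.75, 15.8 and 29.3 CPM in Alb-low libraries (log2 fold change 1.43, SE 0.25, edgeR adjusted p = 4.59e-04). The Car1 call was lost (edgeR adjusted p = 0.339) without the muscle-rich libraries at 200 CPM or more, which leaves 2 Alb-high libraries. Over the list the log2 fold change had a median of 0.39, and 17 of 19 values were above 0. The unadjusted edgeR p was under 0.05 for 7 of the 19, against 317 of 5687 genes outside the liver lists. None of 9 globin genes was called by edgeR or DESeq2, or had an unadjusted p under 0.05. Globins made up 7.55% to 11.8% of counts in Alb-high libraries (median 9.06%) and 5.27% to 13.5% in Alb-low libraries (median 8.65%). The macrophage list had a median log2 fold change of 0.31, with all 15 values above 0 and 5 unadjusted edgeR p under 0.05. It had 1 of 15 genes called, against the same 0.633%, C1qa, a complement subunit (log2 fold change 0.70, SE 0.18, edgeR adjusted p = 0.0386). That call was lost without any of vehicle 62, MMI8 45, MMI16 72, Ami25 81 and Ami50 87, with the run of library numbers as a covariate (adjusted p = 0.0737), without the treatment block (adjusted p = 0.105) and with Alb split at 1000 CPM (adjusted p = 0.447). The C1qa call was also lost with continuous Alb and with liver genes removed from the table. It was lost as well without the muscle-rich libraries at either level, which leaves 2 (200 CPM) or 8 (1000 CPM) Alb-high libraries. The neuron progenitor list had 0 of 7 genes called by edgeR or DESeq2, with a median of 0.59 and 3 unadjusted p under 0.05. Genes of connective tissue (mesenchyme and matrix) had 0 of 16 called by edgeR and 1 by DESeq2, with a median of 0.30 and 4 unadjusted p under 0.05. None of 10 endothelial, 7 liver sinusoid, Kupffer and bile duct, 3 adipose or 12 ribosomal and housekeeping genes was called by either tool, and the unadjusted p was under 0.05 for 0, 1, 0 and 0 of them. No gene of the kidney, pancreas and gut or testis lists was abundant enough to be tested.

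**Figure D3:**
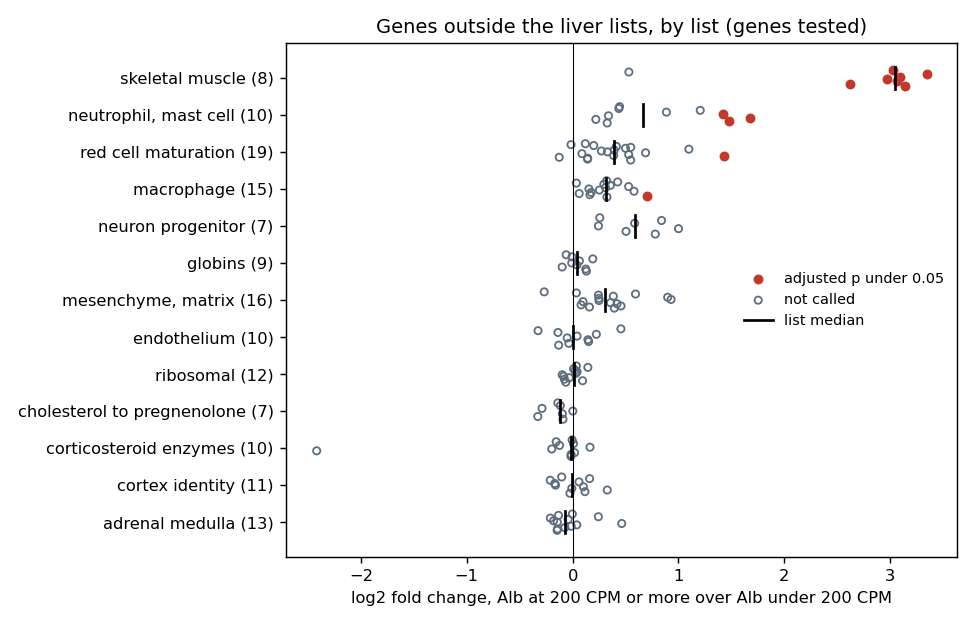
Log2 fold change of Alb-high over Alb-low libraries for each tested gene of 13 lists, with called genes filled and list medians as bars. The called muscle genes lie between 2.62 and 3.35 and Tnni1 at 0.53, the 4 adrenal lists lie near 0 with no called gene, and the single value below -2 is Cyp11b2.

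Skeletal muscle genes were also among those called higher, but all 7 calls were lost when Alb was split at 1000 CPM, with edgeR adjusted p of 0.830 to 0.924. DESeq2 called 5 of them at the split of 200 CPM. The split at 1000 CPM moves vehicle library 42 and Ami50 library 87 to the lower set. Their summed muscle genes were 2948 CPM, the highest of the GD21 libraries, and 895 CPM. How far this move accounts for the lost calls was not tested. The muscle list of 22 genes was chosen after the largest rises had been seen, so its count describes that choice and supports nothing. Of 8 tested, 7 were called, all higher: Tnnc2, Acta1, Mylpf, Ckm, Tnnt3, Myl1 and Actc1, which encode proteins of the contractile apparatus or, for Ckm, muscle creatine kinase. Acta1, skeletal muscle actin, had 15.5, 99.0 and 833 CPM in Alb-high libraries and 2.41, 7.92 and 135 CPM in Alb-low libraries (log2 fold change 3.14, SE 0.62, edgeR adjusted p = 0.00410). The sets overlapped, with 4 of 10 Alb-high libraries above the highest Alb-low library. The 7 called genes had Alb-low medians of 1.82 to 7.92 CPM and passed the filter mainly through Alb-high libraries. Without MMI8 library 45 the calls of Actc1 and Myl1 were lost, with edgeR adjusted p of 0.105 and 0.119. The part of muscle RNA in the other called genes was not tested.

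The order of the libraries by muscle transcripts was not their order by Alb. The summed muscle list was 2948 CPM in vehicle library 42, which had the lowest Alb of the 10, and 2118 CPM in MMI8 library 45, which had the highest. It was 103 CPM in Ami25 library 81 and 126 CPM in vehicle library 44. Across the 10, r with Alb was -0.17 and rho -0.25, and r was -0.35 without the 2 farthest, as a description. The list reached 200 CPM in 8 of 10 Alb-high and 3 of 20 Alb-low libraries. At PD16 it did so in 1 of 5 libraries with Alb at 200 CPM or more and in 5 of the other 48. Without vehicle 42 and MMI8 45, the 2 libraries at 1000 CPM or more, Acta1 had an edgeR adjusted p of 0.0949. Actc1 and Myl1 also lost their calls there, while Tnnc2, Mylpf, Ckm and Tnnt3 kept theirs. Both libraries are Alb-high and were left out by the sum of this same list. A smaller muscle difference is therefore built into that setting, and its lost and kept muscle calls are only a description. In that setting 26 genes outside the liver lists were called. Without all 11 libraries at 200 CPM or more, which leaves 2 Alb-high and 17 Alb-low libraries, 20 were called, 11 of them among the 36.

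**Figure D4:**
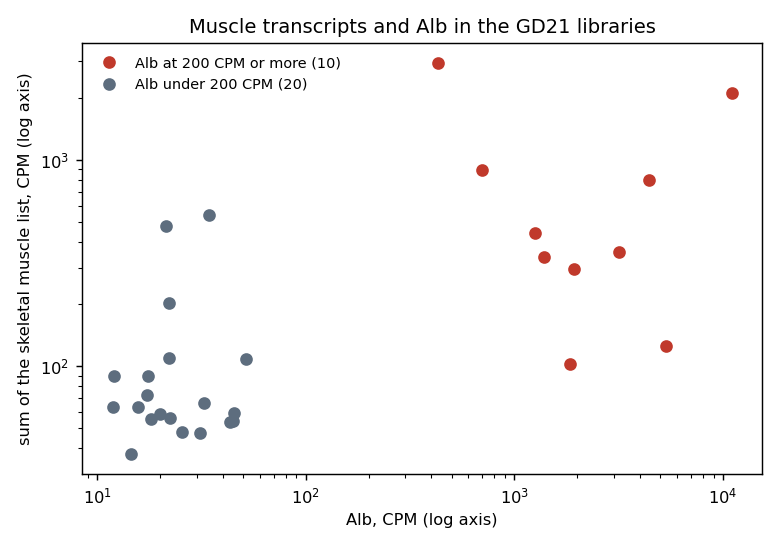
Sum of the skeletal muscle list against Alb in each GD21 library (CPM, both axes log). Among the 10 Alb-high libraries (red) the muscle sum runs from 103 to 2948 CPM (r with Alb -0.17), and 3 Alb-low libraries (grey) exceed 200 CPM.

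No adrenal gene passed edgeR's threshold, which at the share called over all genes outside the liver lists (0.633%) says little about lists of this size. None of 7 genes of cholesterol uptake and conversion to pregnenolone was called, none of 10 corticosteroid enzyme genes, none of 11 cortex identity genes and none of 13 medulla genes. Unadjusted p under 0.05 occurred for 0, 2, 2 and 2 genes of these lists, against 317 of 5687 genes outside the liver lists, and DESeq2 called 1 gene, Cyp11b2. The list medians of the log2 fold change were -0.12, -0.015, -0.0077 and -0.074.

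Cyp11a1, which converts cholesterol to pregnenolone, had 9974, 13537 and 16461 CPM in Alb-high libraries and 10858, 14833 and 20972 CPM in Alb-low libraries (log2 fold change -0.091, SE 0.11, edgeR adjusted p = 0.981). Star, which moves cholesterol into mitochondria, had 699, 959 and 1231 CPM in Alb-high libraries and 830.0, 1028 and 1368 CPM in Alb-low libraries (log2 fold change -0.12, SE 0.10, edgeR adjusted p = 0.971). Cyp21a1, the 21-hydroxylase, had 6585, 8389 and 9835 CPM in Alb-high libraries and 7574, 9366 and 12008 CPM in Alb-low libraries. Its log2 fold change was -0.20 (SE 0.079, unadjusted p = 0.0181, edgeR adjusted p = 0.517). Hsd3b1, which converts pregnenolone to progesterone, had 3305, 4395 and 4535 CPM in Alb-high libraries and 3724, 4675 and 6449 CPM in Alb-low libraries (log2 fold change -0.12, SE 0.083, edgeR adjusted p = 0.930). All 4 ranges overlapped, although no Alb-high library lay above the Alb-low median of Hsd3b1. The summed CPM of the 3 cortex lists was 50405 to 66959 in Alb-high libraries (median 57974) and 57928 to 80043 in Alb-low libraries (median 64972). With counts of the liver lists left out of the totals the medians were 58548 and 65158 in the same order.

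Cyp11b2, aldosterone synthase of the outer cortical zone, had 73.1, 103 and 1988 CPM in Alb-high libraries and 57.9, 207 and 3789 CPM in Alb-low libraries. It exceeded 1000 CPM in 1 of 10 Alb-high libraries, vehicle library 42, and in 8 of 20 Alb-low libraries. The log2 fold change was -2.42 (SE 1.00), and the call differed between tools, with an edgeR adjusted p of 0.601 and a DESeq2 adjusted p of 0.0355. Without vehicle library 42 the edgeR value was -3.05 (adjusted p = 0.138). Cyp11b1, which makes corticosterone, was at 0.018 (SE 0.18, edgeR adjusted p = 1.00) and its sign changed between analyses.

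In the medulla list, Pnmt, the adrenaline-forming enzyme, had 476, 662 and 785 CPM in Alb-high libraries and 545, 709 and 942 CPM in Alb-low libraries (log2 fold change -0.18, SE 0.081, unadjusted p = 0.0346, edgeR adjusted p = 0.752). Th and Dbh, earlier enzymes of the same pathway, had log2 fold changes of -0.0024 and -0.013, whose sign changed between analyses. Npy went the other way, with a log2 fold change of 0.46 (SE 0.17, unadjusted p = 0.0119, edgeR adjusted p = 0.416). Of the 13 tested medulla genes, 3 had a value above 0. In bulk tissue, fewer cells of a type and less RNA per cell cannot be told apart.

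**Figure D5:**
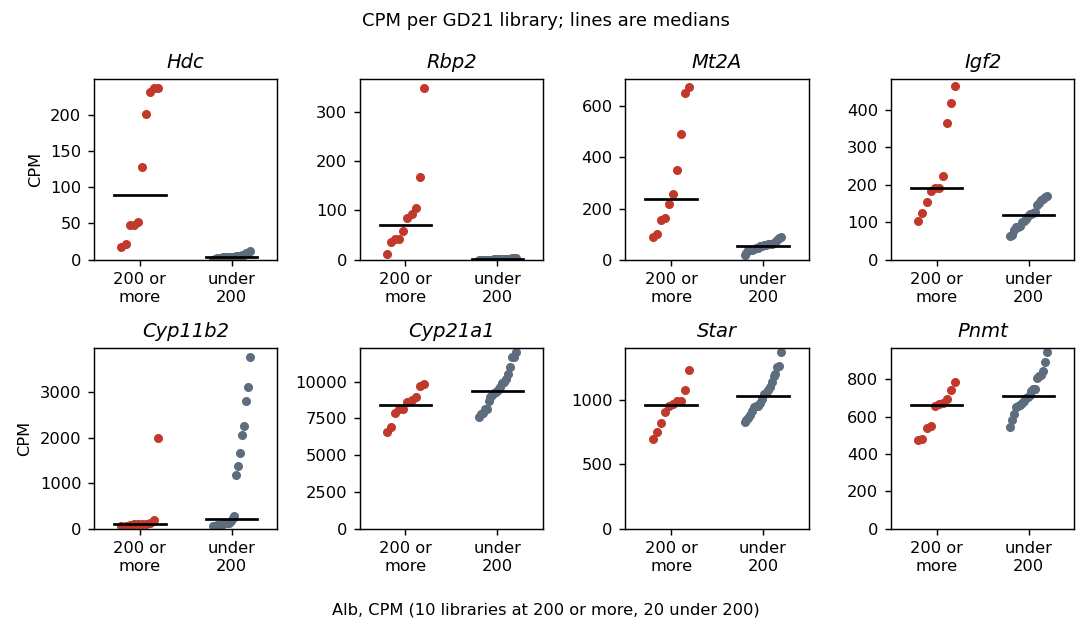
CPM in each GD21 library for 4 called genes (top) and 4 adrenal genes (bottom), Alb-high libraries (red) left and Alb-low (grey) right, with medians as lines. Hdc and Rbp2 separate the sets, and Cyp11b2 lies above 1000 CPM in 1 Alb-high and 8 Alb-low libraries.

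The 1 gene called lower was Gstt1, a glutathione transferase. It had 339, 404 and 507 CPM in Alb-high libraries and 361, 533 and 689 CPM in Alb-low libraries (log2 fold change -0.34, SE 0.089, edgeR adjusted p = 0.0431). The call was lost without any of vehicle 44, vehicle 62, MMI8 45, MMI8 70, MMI16 47, Ami25 81 and Ami50 89, with the run of library numbers as a covariate (adjusted p = 0.0737) and with liver genes removed from the table (adjusted p = 0.0955). It was also lost without the muscle-rich libraries at either level, which leaves 2 (200 CPM) or 8 (1000 CPM) Alb-high libraries.

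The Alb split was also entered as a covariate in the comparisons of treatment with vehicle at GD21. edgeR called 0 of 6236 genes (0%) for each of MMI8, MMI16, Ami25 and Ami50, with 171, 220, 552 and 442 genes at an unadjusted p under 0.05. It also called 0 for each without the covariate, and 0 of 6551 (0%) for each without the 10 Alb-high libraries. DESeq2 with the covariate called 0, 0, 0 and 18 genes, the 18 all higher in Ami50.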

How the data were processed

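The deposited values are raw counts, 1 column for each library and 1 line for each gene symbol. BWA 0.7.4.4 and the build rn6 are named in the submitters' processing notes. No source used here gives the counting tool, the strand setting or the handling of molecular barcodes. Totals of 495369 to 1627114 counts at GD21 mean that 1 count is about 1 CPM. Computed here: CPM of library totals, and edgeR 4.0.16 quasi-likelihood fits (R 4.3.3; TMM, filterByExpr minimum count 10, robust, treatment block, Benjamini-Hochberg over all genes tested), tested on simulated data. DESeq2 1.42.0 was an alternative. Of 435 library pairs none was a copy (lowest chi-square per degree of freedom 1.73). Correlations used Python 3.11.15.

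The libraries, gene lists and tests were chosen with earlier results of these data known. Named genes are the 4 markers, the most abundant liver-list members, a fixed panel, the 10 largest called changes each way of at least 20 CPM, at most 3 called members of each further list, and the 10 genes most like Alb. H19, Npy, Aqp9, Aqp8, Gulo, the muscle list and the analyses without muscle-rich libraries were chosen after values were seen. Promoters are RefSeq GRCr8, used for letters only, while the counts are on rn6.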

Additional observations from a re-analysis of the deposited data

Results flagged for a closer look

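Among 100 sets of values checked for a single library far from the others, 16 were flagged. Chance flags about 1 in 20, but that rate does not apply to Alb and the liver share. Alb chose the libraries and the liver share was chosen with it, so the number flagged is not read against chance. Alb was flagged in MMI8 library 45 (10976 CPM, next 5319 CPM over the 10 Alb-high libraries and 1382 CPM within MMI8), in Ami25 library 81 (1842.5 CPM, next 51.5 CPM within the group), in Ami50 library 89 (4394 CPM, next 696 CPM) and in vehicle library 44 (5319 CPM, next 1929 CPM). The share of liver-list counts was flagged within each treatment group, at 4.71% in MMI8 library 45, 1.89% in MMI16 library 47, 1.04% in Ami25 library 81, 2.84% in Ami50 library 89 and 3.20% in vehicle library 44. The muscle list was flagged at 2118 CPM in MMI8 library 45 (next 543 CPM) and at 2948 CPM in vehicle library 42 (next 297 CPM).

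Of single genes over the 10 Alb-high libraries, Rbp2 was flagged in MMI8 library 45 (349 CPM, next 167 CPM). Cyp11b2 was flagged in vehicle library 42 (1988 CPM, next 199 CPM), as was Hbb-b1, a beta globin (5834 CPM, next 4565 CPM). Slc4a1, the red cell anion exchanger, was flagged in MMI16 library 47 (198.5 CPM, next 80.5 CPM).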

How the results depend on the processing

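The called genes, 71 in all and 36 outside the liver lists, became 281 and 164 without the filter on low counts. Leaving out 1 Alb-high library at a time gave 56 to 84 and 24 to 46. Without the libraries at 200 CPM or more of the muscle list, 20 were called outside the liver lists. DESeq2 called 18 genes for Ami50. The median liver share of Alb-low libraries was 0.0759% with 3 lists only, and the Alb-low correlation was 0.654 with the markers only. Of 706 values of 34 named genes, 598 kept direction and call, 62 lost the call, 1 gained it and 45 changed sign, all 45 in 8 genes that were not called; the cause was not tested. Sign changes, as log2 values: Actb 0.036 without the block, 0.10 with Alb split at 1000 CPM, 0.0045 with continuous Alb; Gapdh 0.0057, 0.092 and 0.0051 likewise, and 0.13 without muscle at 200 CPM; Th 0.018, 0.033 and 0.0074 likewise, 0.0067 without liver genes, 0.054 with number series, 0.0074 without muscle at 1000 CPM; Cyp11b1 -0.052 without the block, -0.013 at 1000 CPM, -0.051 without muscle at 200 CPM; Dbh 0.00023 with continuous Alb, 0.083 and 0.017 without muscle at 200 and 1000 CPM; Chga 0.16 and Hba-a2 -0.072 without muscle at 200 CPM; Hbb-b1 0.00041 without liver genes. Leaving out 1 library gave ranges of -0.14 to 0.0097 for Actb, -0.29 to 0.010 for Chga, -0.054 to 0.10 for Cyp11b1, -0.058 to 0.065 for Dbh, -0.099 to 0.029 for Gapdh, -0.054 to 0.049 for Hbb-b1 and -0.13 to 0.10 for Th. No paired analysis was possible because no library number occurs in more than 1 group.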
